A study of Rattus norvegicus with 6 samples.

Results

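The genes of the vasopressin receptor and cAMP pathway were taken from the RNA-seq table of the rat kidney inner medulla (IM) by their exact names. The rule names 10 genes, which are vasopressin receptors, adenylyl cyclases, catalytic subunits of protein kinase A (PKA) and Epac proteins. Of these, 8 had a row of their own among the 27321 features of the table: Avpr1a, Adcy3, Adcy4, Adcy6, Prkaca, Prkacb, Rapgef3 and Rapgef4. Avpr2 was counted only inside a feature merged with its neighbours, and Adcy9 was not analysed here.

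RNA was taken from the tip of the IM, its innermost part, of male Sprague-Dawley rats aged 3 months and weighing about 150 g. The 3 control rats received vehicle into the tail vein. The 3 STZ rats received STZ (streptozotocin), which destroys the insulin-producing beta cells and makes the animals diabetic, at 62.5 mg/kg. All were killed 15 days after the injection. The protocol gives n per group and mentions no pooling, so each library was taken as 1 rat, and p-values measure the spread between these libraries. Values are listed below in the order of replicates 1, 2 and 3 of a group.

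Vasopressin makes the collecting duct permeable to water and urea. It binds the V2 receptor (Avpr2), which acts through the G protein Gs on adenylyl cyclases, and the cAMP they make releases the catalytic subunits of PKA from their regulatory subunits. Cyclic AMP also opens the Epac proteins Rapgef3 and Rapgef4, which load GTP onto the small G protein Rap. The V1a receptor (Avpr1a) couples instead to Gq and calcium and is best known from blood vessels, where it mediates constriction.

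Between 3412311 and 5575171 reads were counted on features in each library, and the deposited values are normalized counts, in which a read is worth 0.763 to 1.11. Over the 13486 features whose mean reached 5 normalized counts, limma called 283 at an adjusted p-value under 0.05, which is 2.10%. Lane 3 held all control libraries and lanes 7, 6 and 8 held 1 STZ library each, which leaves lane and treatment confounded, and they cannot be told apart. Aqp2 and Aqp3, the apical and basolateral water channels that define principal cells, had between 2137 and 7413 and between 4728 and 22114 normalized counts in the 6 libraries. Of the marker lists, all 7 tested intercalated cell markers had negative log2 fold changes, 5 of them called lower by limma, and their summed level was 1262 to 2771 in control and 524 to 592 in STZ libraries. Thick ascending limb markers summed to 2684 to 3454 and 1600 to 2799, with 3 of 4 negative and 2 called lower. Proximal tubule markers summed to 256 to 472 and 95.9 to 160, with 4 of 5 negative and 1 called lower. Endothelial markers summed to 7346 to 9493 and 4360 to 4720, with 5 of 9 positive and 4 negative, of which 1 was called higher and 2 lower. Interstitial cell, pericyte and smooth muscle markers summed to 1219 to 1562 and 2218 to 2536, with 6 of 9 positive and 3 called higher. Urothelial markers summed to 90.8 to 143 and 441 to 529, with all 6 positive and 2 called higher. None of the 10 principal cell, 7 thin limb or 9 leukocyte markers tested passed by limma. At an unadjusted p under 0.05 there were 4, 0 and 0 of them, against 14.7% of all features. Their log2 fold changes were positive in 6, 3 and 7 and negative in 4, 4 and 2. No marker with a row was at or under 3 reads in all 6 libraries. In bulk tissue, fewer cells of a type and less RNA per cell cannot be told apart.

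None of the 8 genes passed the threshold between control and STZ rats by limma, against 2.10% of all features. None passed by edgeR (2.13% of all features) or DESeq2 (4.43%) either. The same held with quantile normalization (3.87%), equal library totals (2.88%), no intensity trend (0.230%), no filter (0.359%) and the replicate number as a block (4.16% by limma and 4.03% by edgeR). At an unadjusted p under 0.05 there were 2 by limma (Prkaca and Prkacb), 2 by edgeR (Prkaca and Rapgef3) and 0 by DESeq2, where the share over all features was 14.7%, 15.0% and 13.1%. The log2 fold changes, STZ over control on log2(normalized count + 1), were positive in 4 genes and negative in 4, with a median of −0.12 against 0.006 over all features tested. They ran from −0.73 for Avpr1a to 0.77 for Prkaca. The groups did not overlap in 2 of the 8 genes, Prkaca and Rapgef3, where 20.3% of all features showed no overlap. In both the STZ values lay above control, as in 10.1% of all features, and none of the 8 had them wholly below, as in 10.3%.

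**Figure D1:**
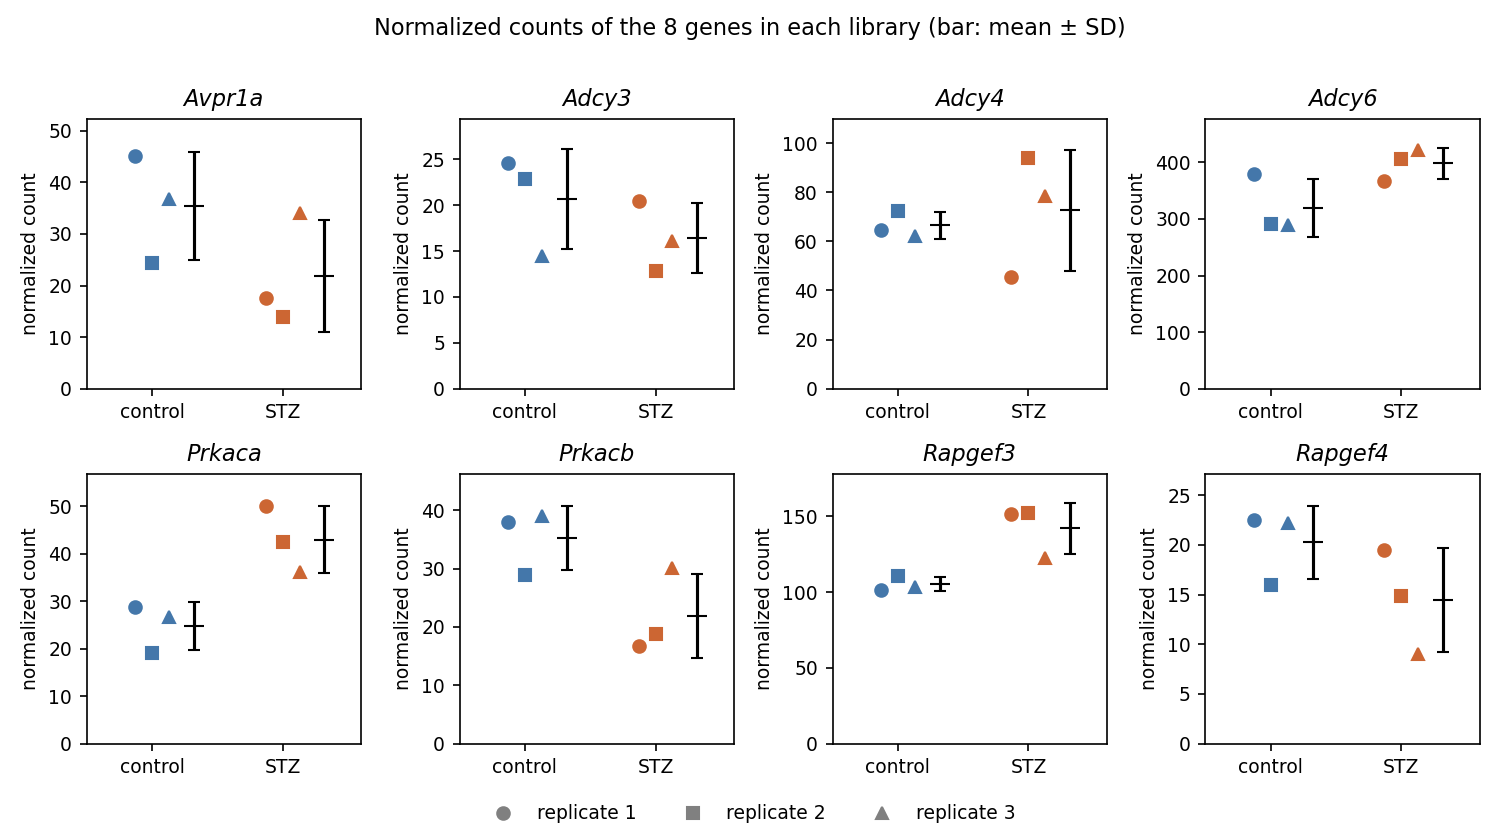
Normalized counts (y axis, from 0) of the 8 genes in the 3 control and 3 STZ libraries, 1 point per library with its replicate number by symbol, and the group mean ± SD at the right of the points. The STZ points of Prkaca and Rapgef3 all lie above the control points, and those of the other 6 genes overlap with control.

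The fold change of every gene had a wide interval with 3 libraries per group at this depth. The mean reads per library give a counting error of 5.18% for Adcy6 but 22.6% for Adcy3 and 23.6% for Rapgef4. The spread between replicates within a group ran from 4.55% for Rapgef3 in control to 49.3% for Avpr1a in STZ rats. As a fold of STZ over control, the 95% interval was 0.944 to 1.66 for Adcy6 and 0.34 to 1.07 for Avpr1a. A missed threshold does not show that a gene was the same in both groups.

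**Figure D2:**
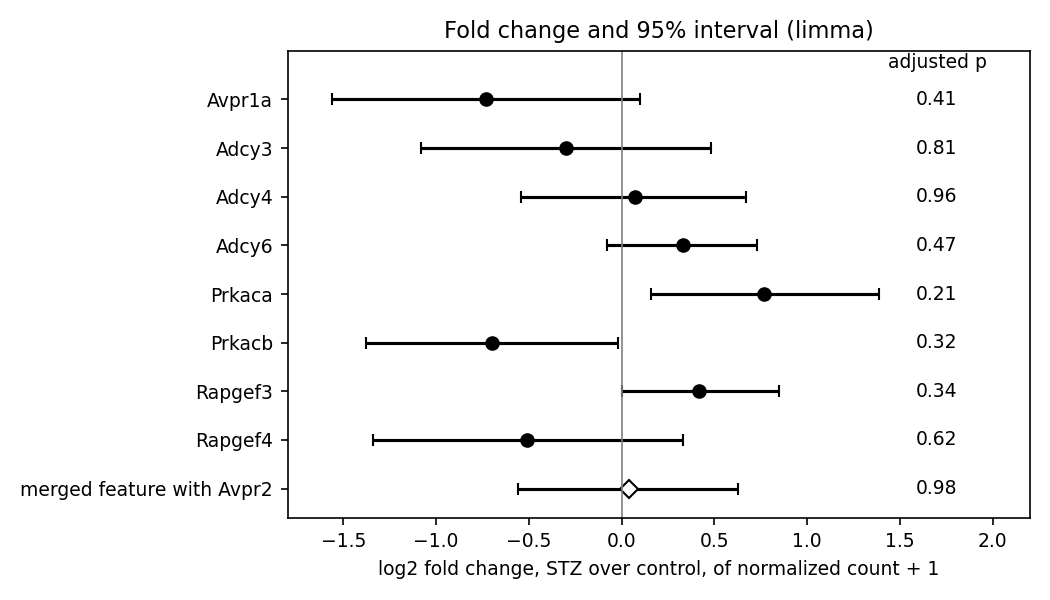
Log2 fold change, STZ over control, of normalized count + 1 (x axis) for the 8 genes and the merged feature that holds Avpr2 (open diamond), with 95% intervals and adjusted p-values by limma. The points run from −0.73 to 0.77, the interval of Prkaca lies above 0 and that of Prkacb below it, and every adjusted p is 0.206 or higher.

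The V2 receptor gene has no row of its own. Its reads fall in a feature that joins Avpr2 with Arhgap4 and a transcript named Q63667_RAT, on chromosome X of rn4 from 159820345 to 159839020. In control rats the merged feature had 705, 779 and 410 normalized counts, and after STZ it had 781, 472 and 661. These groups overlapped almost entirely. limma gave a log2 fold change of 0.04 ± 0.27 (SE) and an adjusted p of 0.976, with a 95% interval of 0.679 to 1.55 as a fold, and its sign turned with control replicate 3 (−0.25), STZ replicate 1 (−0.12) or STZ replicate 3 (−0.003) left out. How many of these reads came from Avpr2 cannot be read from the table, so no value of Avpr2 itself is given.

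Avpr1a, the V1a receptor, lies on chromosome 7 of rn4 from 62225552 to 62229616. Control rats had 45.1, 24.4 and 36.7 normalized counts of it, and STZ rats 17.6, 13.8 and 34.1. STZ replicates 1 and 2 were below every control library, but STZ replicate 3 lay within the control range. The means were 35.4 ± 10.4 and 21.9 ± 10.8 (SD, n = 3 each), with a log2 fold change of −0.73 ± 0.38 (SE) that did not pass (limma, adjusted p = 0.415). Without STZ replicate 3 it was −1.09, with an adjusted p of 0.214, and without STZ replicate 2 it was −0.47. The V1a receptor is also found in intercalated cells, whose summed markers, like those of endothelium, had lower STZ than control ranges as given above. Of the endothelial markers, though, 5 of 9 had positive log2 fold changes. Interstitial cell, pericyte and smooth muscle markers went the other way, with sums of 1219 to 1562 in control and 2218 to 2536 in STZ libraries. The part of any of these cell types in the Avpr1a value was not tested. The related receptors Avpr1b and Oxtr were below the minimum mean and not tested. Avpr1b had between 1 and 11 reads per library, and Oxtr, the oxytocin receptor, never had more than 3.

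Adcy6, a cyclase that calcium inhibits and the one best known from the cAMP response of the collecting duct, lies on chromosome 7 from 137339932 to 137354805. Its normalized counts were 379, 291 and 289 in control rats, against 368, 406 and 422 in STZ rats. Control replicate 1 stood above STZ replicate 1, so the groups overlapped by that library. The mean was 319.8 ± 51.6 in control and 398 ± 27.7 in STZ rats (SD), and limma put the change at 0.33 ± 0.19 (SE) on the log2 scale (adjusted p = 0.469). With control replicate 1 left out it was 0.45, with an adjusted p of 0.327.

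Adcy4, a cyclase that G protein beta-gamma subunits stimulate, lies on chromosome 15 from 33930533 to 33946352. Its control values were close together, at 64.6, 72.5 and 62.3 normalized counts, while the STZ values were spread widely, at 45.5, 94.0 and 78.3. STZ replicate 1 was below all control libraries and the others above all of them. The means were 66.5 ± 5.32 and 72.6 ± 24.7, and the log2 fold change of 0.07 ± 0.28 (SE; limma, adjusted p = 0.963) turned to −0.15 without STZ replicate 2 and to −0.02 without STZ replicate 3.

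Adcy3, a cyclase known from olfactory neurons and also found in kidney, lies on chromosome 6 from 27118324 to 27202275. It had 24.6, 22.9 and 14.5 normalized counts in control and 20.4, 12.9 and 16.1 in STZ rats, from 13 to 30 reads each. The range of each group covered part of the other, with a log2 fold change of −0.30 ± 0.35 (SE; limma, adjusted p = 0.808). Of the reads on these 3 cyclases, Adcy6 held 78.4% ± 2.88 in control and 81.9% ± 2.83 in STZ libraries (SD, n = 3 each). Adcy4 held 16.5% ± 2.53 and 14.7% ± 3.95, and Adcy3 held 5.04% ± 1.01 and 3.44% ± 1.14. None of the 3 shares separated the groups (exact permutation tests, two-sided, p = 0.2, 0.6 and 0.2, adjusted p = 0.25, 0.6 and 0.25 over the 5 ratios tested). Since the counts are not corrected for gene length, these are shares of reads and not of transcripts.

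Both catalytic subunits of PKA were counted at low depth, with Prkaca higher and Prkacb lower on average in STZ rats, neither past the threshold by limma. Prkaca, the alpha subunit, lies on chromosome 19 from 25840803 to 25864786, and Prkacb, the beta subunit, on chromosome 2 from 244949302 to 245035266. Each is the kinase itself, which phosphorylates the water channel Aqp2 once cAMP frees it. The sequences upstream of their starts are shown because these genes belong to the pathway whose transcription factors bind the cAMP response element. They are the 250 bases before the RefSeq gene start, on the strand of the gene, in build GRCr8 (chr19:41083190-41083439 for Prkaca and chr2:238386316-238386565 for Prkacb, both on the minus strand). Capitals mark the core of that element, TGACG, or CGTCA where it reads on the other strand.
Prkaca: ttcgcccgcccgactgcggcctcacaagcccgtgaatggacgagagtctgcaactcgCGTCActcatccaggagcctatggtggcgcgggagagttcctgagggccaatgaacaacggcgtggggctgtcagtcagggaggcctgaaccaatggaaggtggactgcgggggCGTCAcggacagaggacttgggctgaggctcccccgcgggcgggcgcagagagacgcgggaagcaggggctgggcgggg
Prkacb: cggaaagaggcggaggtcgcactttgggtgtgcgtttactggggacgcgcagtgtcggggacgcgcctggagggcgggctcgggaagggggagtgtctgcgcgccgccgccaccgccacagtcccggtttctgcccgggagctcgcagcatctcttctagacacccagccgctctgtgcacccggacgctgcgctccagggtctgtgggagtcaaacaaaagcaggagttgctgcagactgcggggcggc
The window of Prkaca held 2 cores, whose first bases lie 193 and 79 bases upstream of the gene start, and that of Prkacb held 0. Of 33469 windows of the same length before RefSeq gene starts, 18.2% held at least 1 core on either strand and 4.0% at least 2. Promoter windows were found for 8 of the 10 genes named by the rule, Avpr2 and Adcy9 included, and 3 of these 8 (Avpr1a, Adcy9 and Prkaca) held a core. The full palindrome TGACGTCA, which contains a core on each strand, was in 0 of these 8 and in 1.59% of all windows. A match describes letters in this window only.

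For Prkaca, control rats had 28.7, 19.1 and 26.7 normalized counts and STZ rats 50.1, 42.5 and 36.1. Every STZ value was above every control value. The mean went from 24.8 ± 5.09 to 42.9 ± 7.01 (SD, n = 3 each), which is 1.73 times as much, and the log2 fold change was 0.77 ± 0.28 (SE). Its unadjusted p of 0.0176 became an adjusted p of 0.206 by limma, and the adjusted p ran from 0.142 to 0.52 over 18 alternatives. The log2 fold change stayed between 0.60 and 0.89 with each library left out in turn. An exact permutation test gave p = 0.1, the smallest that 3 libraries against 3 allow (two-sided).

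Prkacb stood at 37.9, 29.0 and 39.0 normalized counts in the control group, against 16.7, 18.8 and 30.1 in the STZ group. STZ replicates 1 and 2 lay below all controls, and STZ replicate 3 was just above control replicate 2. Its mean was 35.3 ± 5.49 in control and 21.9 ± 7.21 in STZ rats (SD), a change of −0.70 ± 0.31 (SE) on the log2 scale (limma, unadjusted p = 0.0455, adjusted p = 0.324). With 1 library left out at a time it stayed between −0.94 and −0.54, the lowest without STZ replicate 3.

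A ratio within a library does not depend on how the library was scaled. Such a ratio, like that of Rapgef3 to Rapgef4 below, reuses the values given for each gene and is no separate result. The ratio of Prkaca to Prkacb was 0.757, 0.658 and 0.686 in control libraries, against 3.00, 2.26 and 1.20 in STZ libraries. All control libraries thus had more reads on Prkacb and all STZ libraries more on Prkaca, without overlap. Control ratios averaged 0.70 ± 0.051 and STZ ratios 2.15 ± 0.905 (SD, n = 3 each), a difference of 1.53 on the log2 scale. The counting error was 16.9% for Prkaca and 18.4% for Prkacb, wider than the spread of the control ratios. The exact permutation test gave p = 0.1, the smallest possible, and 0.25 adjusted over 5 ratios. Leaving out each library in turn, the difference ran from 1.24 without STZ replicate 1 to 1.90 without STZ replicate 3.

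**Figure D3:**
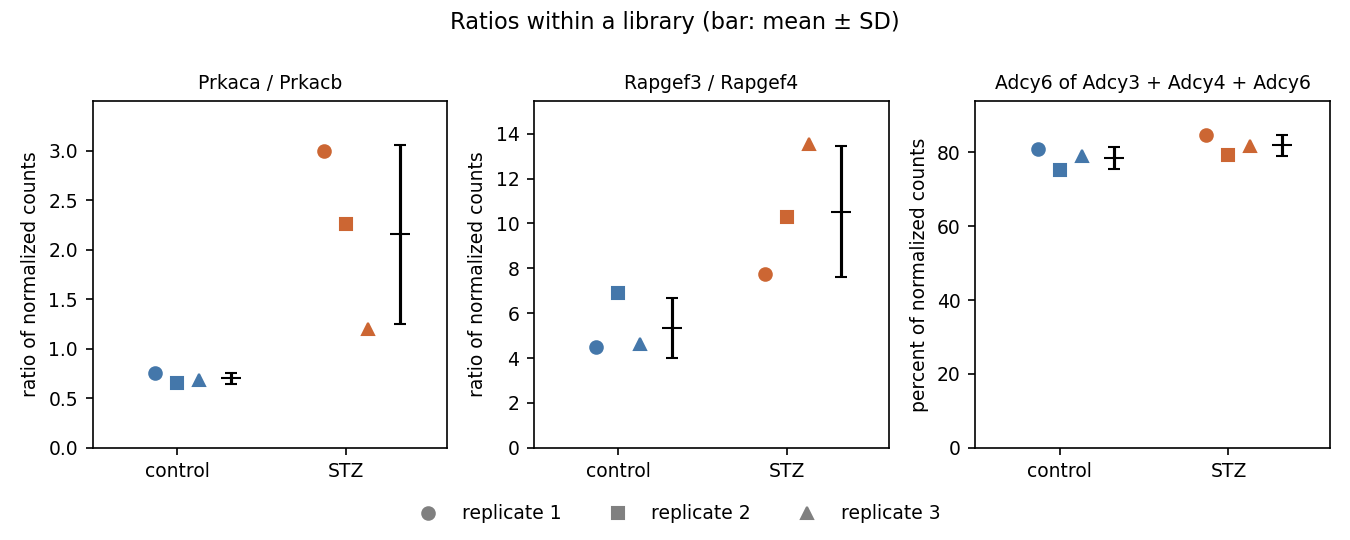
Ratio of normalized counts of Prkaca to Prkacb and of Rapgef3 to Rapgef4, and Adcy6 as a percent of the 3 cyclases (y axes, from 0), in each control and STZ library, with the group mean ± SD. The control points of Prkaca to Prkacb lie between 0.658 and 0.757 and the STZ points between 1.20 and 3.00, and the Adcy6 shares overlap.

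Rapgef3, which encodes Epac1, lies on chromosome 7 from 136452869 to 136475014. It was counted at 101, 111 and 104 in control rats and at 151, 152 and 122 in STZ rats, after normalization. The control values were close together and all STZ values lay above them, STZ replicate 3 being the nearest. The control spread of 4.55% was below the counting error of 8.79%. The means were 105 ± 4.78 and 142 ± 17.0 (SD, n = 3 each), and they differed by 0.42 ± 0.19 (SE) on the log2 scale (limma, unadjusted p = 0.0505, adjusted p = 0.341), with an exact permutation p of 0.1. As a fold, the 95% interval was 0.999 to 1.80.

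Rapgef4, which encodes Epac2, lies on chromosome 3 from 54632328 to 54717140 and was near the limit of detection. It had 22.6, 16.0 and 22.3 normalized counts in control and 19.5, 14.8 and 9.04 in STZ rats, from 9 to 22 reads each. Olfactory receptor genes, which kidney is not known to express at high level, served as a measure of background. Rapgef4 exceeded their 95th percentile in all libraries but STZ replicate 3, and the other 7 genes exceeded it in all 6. The groups overlapped in STZ replicate 1 (log2 fold change −0.51 ± 0.38 SE; limma, adjusted p = 0.624). The ratio of Rapgef3 to Rapgef4 was 4.50, 6.91 and 4.65 in control and 7.76, 10.3 and 13.6 in STZ rats, a difference of 0.97 on the log2 scale. It did not overlap between the groups (exact permutation p = 0.1, the smallest possible, and 0.25 adjusted over 5 ratios), but with quantile normalization the groups overlapped (difference 1.03, exact permutation p = 0.2). With 1 library left out at a time, this difference was 0.77 to 1.17. The highest ratio, 13.6 in STZ replicate 3, has a Rapgef4 value at the olfactory percentile of that library, 9.04.

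Of the other genes of the pathway, 130 of 160 on 13 lists had a row and 93 were tested. Only Akap11 and Akap12 passed by limma, and by edgeR, both higher. DESeq2 called these and 7 more: Gnai1, Akap2, Rapgef5, Npy1r, Rgs4, Aqp2 and Scnn1g, where it called 4.43% of all features. By limma, 2 higher and 0 lower were called, that is 2 of 93 where 1.17% of all features were called higher and 0.927% lower. At an unadjusted p under 0.05 limma had 24 of the 93, against 14.7% of all features. The log2 fold changes were positive in 64 and negative in 29, with a median of 0.26 against 0.006 over all features. STZ values lay wholly above control in 19 of the 93 genes and wholly below in 6, where 10.1% and 10.3% of all features did.

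**Figure D4:**
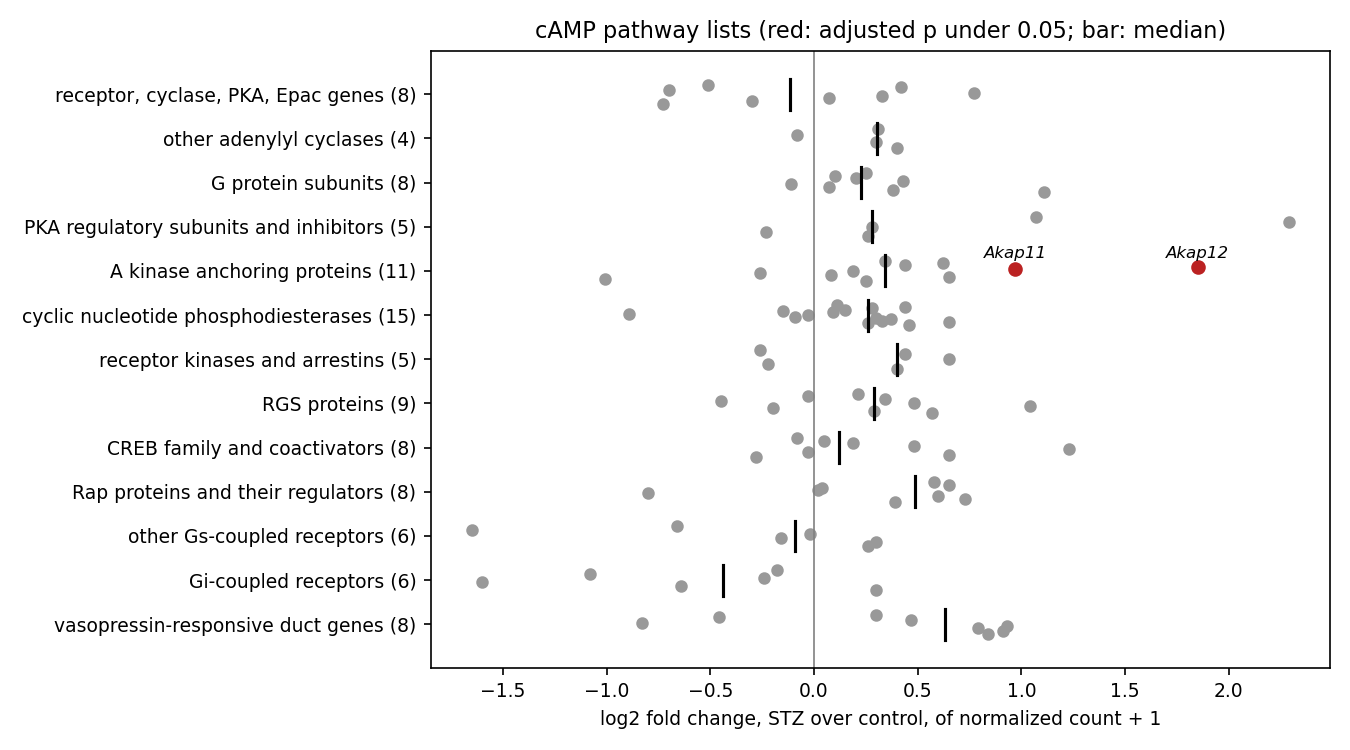
Log2 fold change, STZ over control, of normalized count + 1 (x axis) for each tested gene, by list, with the number tested in brackets, the median as a bar and genes with an adjusted p under 0.05 by limma in red. Only Akap11 (0.97) and Akap12 (1.85) are red, and the medians of the lists run from −0.44 for the Gi-coupled receptors to 0.63 for the vasopressin-responsive duct genes.

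A kinase anchoring proteins hold PKA near its targets. Of 11 tested, 2 rose and 9 did not pass, with a median log2 fold change of 0.34. By limma, 6 of the 11 had an unadjusted p under 0.05, where 14.7% of all features had one. STZ values lay wholly above control in 4 and wholly below in 1, as in 10.1% and 10.3% of all features. Akap12, a scaffold also called gravin, rose from 230, 361 and 268 normalized counts in control to 1210, 1283 and 678 in STZ rats. Its STZ values were all above control, with a log2 fold change of 1.85 ± 0.27 (SE; limma, adjusted p = 0.00679). It passed in 16 of 18 alternatives, with an adjusted p from 1.83e-09 to 0.16, and in all 6 that leave out a library. Akap12 is known from pericytes and smooth muscle. Of the 9 interstitial cell, pericyte and smooth muscle markers tested, 3 were called higher by limma. Log2 fold changes were positive in 6 of the 9 and negative in 3. The part of these cells in the Akap12 value was not tested. Akap11, a large anchoring protein of endosomes, rose from 191, 178 and 200 to 459, 330.4 and 341 normalized counts (log2 fold change 0.97, SE 0.19, adjusted p = 0.0301). Leaving out any library but control replicate 3 lost this call, at an adjusted p of 0.0672 and 0.137 without control replicates 1 and 2, and of 0.109, 0.0765 and 0.0651 without STZ replicates 1, 2 and 3. It passed in 11 of 18 alternatives (adjusted p 0.000623 to 0.167).

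The regulatory subunits keep PKA inactive, and the Pki proteins inhibit its free catalytic subunit. None of the 5 tested passed by limma, and 2 had an unadjusted p under 0.05, where 14.7% of all features had one. Prkar2b, the regulatory subunit II beta and the highest of this list by reads, averaged 127 ± 15.1 normalized counts in control against 154 ± 8.23 in STZ rats (SD, n = 3 each). Its groups did not overlap, as in 20.3% of all features (log2 fold change 0.28, adjusted p = 0.577 by limma). Among 8 G protein subunits, 4 other adenylyl cyclases and 5 receptor kinases and arrestins tested, none passed by limma. At an unadjusted p under 0.05 these lists held 1, 0 and 1 genes, against 14.7% of all features. Gng10, a gamma subunit, had a log2 fold change of 0.10 (adjusted p = 0.938), which turned to −0.12 without control replicate 3 and −0.18 without STZ replicate 1. Adcy2, a cyclase that beta-gamma subunits stimulate, had 47.1 ± 3.14 and 62.3 ± 1.69 normalized counts, without overlap, as in 20.3% of all features (log2 fold change 0.40, adjusted p = 0.434). Its spread within the groups, 6.68% and 2.70%, was below its counting error of 13.2%. Grk4, a receptor kinase, had a log2 fold change of −0.22 (adjusted p = 0.747).

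Phosphodiesterases break down cyclic nucleotides. Of 15 genes tested on their list, which also holds the phosphodiesterase-interacting protein Pde4dip, none passed by limma. An unadjusted p under 0.05 was found for 2 of them, against 14.7% of all features. Pde1a, which calcium and calmodulin activate, averaged 156 ± 10.6 in control against 216 ± 37.8 in STZ rats, without overlap, as in 20.3% of all features (log2 fold change 0.46, SE 0.20, adjusted p = 0.311). RGS proteins, which speed the shutdown of G proteins, also had none of 9 past the threshold by limma. Of these 9, 1 had an unadjusted p under 0.05, against 14.7% of all features. Rgs5, a pericyte gene, had a log2 fold change of 0.48 (adjusted p = 0.479). None of 8 genes of the CREB family, the transcription factors that PKA phosphorylates, and their coactivators passed by limma. Of these 8, 1 had an unadjusted p under 0.05, against 14.7% of all features. Creb1 itself had 34.4 ± 7.23 and 28.7 ± 9.05 normalized counts (log2 fold change −0.28, adjusted p = 0.791), and the coactivator Crebbp had a log2 fold change of 0.19 (adjusted p = 0.788). Among 8 genes of Rap proteins, the targets of Epac, and of their regulators, none passed by limma. Of these 8, 2 had an unadjusted p under 0.05, against 14.7% of all features. Rap1gds1, a chaperone of small G proteins, had values from 251 to 558 in control and 299 to 859 in STZ libraries (log2 fold change 0.58, adjusted p = 0.554).

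Other receptors that raise cAMP through Gs or lower it through Gi had none of 6 and none of 6 past the threshold by limma. At an unadjusted p under 0.05 there were 1 and 2, against 14.7% of all features. Calcrl, the receptor of adrenomedullin and CGRP, had 240, 83.9 and 62.3 normalized counts in control and 134, 67.3 and 99.4 in STZ rats. Control replicate 1 stood far above the others, and the log2 fold change of −0.16 (adjusted p = 0.933) turned to 0.41 without it and to 0.09 without STZ replicate 2. Npy1r, a neuropeptide Y receptor coupled to Gi, had 721, 906 and 581 in control and 397, 493 and 206 in STZ libraries, without overlap, as in 20.3% of all features (log2 fold change −1.08, SE 0.30, adjusted p = 0.106). With DESeq2 its adjusted p was 0.0158 and with edgeR 0.128, and it passed in 4 of 18 alternatives (0.0119 to 0.489). Ptger3 and Ptger4, the prostaglandin E2 receptors that lower and raise cAMP, had at most 8 and 3 reads and were not tested.

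Of the 8 genes listed as vasopressin-responsive in the duct, none passed by limma. An unadjusted p under 0.05 was found for 5 of them by limma, where 14.7% of all features had one. The log2 fold changes were positive in 6 and negative in 2. STZ values lay wholly above control in 3 of the 8 and wholly below in 1, as in 10.1% and 10.3% of all features. Aqp2 had 2865, 3641 and 2137 normalized counts in control and 7413, 3824 and 4501 in STZ rats, all STZ values being above control. Its log2 fold change was 0.84 (SE 0.29), and the adjusted p was 0.18 by limma, 0.164 by edgeR and 0.0299 by DESeq2, from 0.0299 to 0.576 over 18 alternatives. Aqp3 had 9786, 9784 and 4728 in control and 22114, 9711 and 13926 in STZ libraries, with overlap in STZ replicate 2 (log2 fold change 0.91, SE 0.36, adjusted p = 0.263). Fxyd4, a regulator of the sodium pump, had a log2 fold change of 0.30 (adjusted p = 0.787).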

How the data were processed

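RNA of 3 control and 3 STZ IM tips was converted to cDNA with a PCR-based kit and sequenced on a HiSeq2000. The authors aligned reads to rn4 with STAR 2.3.1t, counted uniquely mapped reads per gene of Ensembl RGSC3.4 and divided each library by its DESeq size factor, with DESeq 1.16.0 named in the submitters' processing notes. The deposited signal is this normalized count. How reads were counted, and whether by strand, is not given in the sources used here, so antisense genes could share reads.

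Every value was a whole multiple of 1 step per library (100.0% within 1e-06 reads), which recovered the reads. In STZ replicates 2 and 3 a read was worth close to 1 (0.989 and 1.00), so there the recovered reads hardly differ from the deposited values. Reads carry no molecular identifiers, so counting errors and the floor of 3 reads cover counting error only. The main test was limma 3.58.1 (R 4.3.3) with an intensity trend, applied to log2(normalized count + 1) of 13486 features whose mean reached 5, with Benjamini-Hochberg adjustment and a threshold of 0.05. This scale understates the change of low genes. On recovered reads, edgeR 4.0.16 (quasi-likelihood, TMM) and DESeq2 1.42.0 were alternatives. The other settings tried were a pseudocount of 0.5 or 5, a minimum mean of 1 or 20, no filter, equal library totals, quantile normalization, no trend, the replicate number as a block, and each library left out in turn. Exact permutation tests of ratios were two-sided, and ratios to Avpr2 or with Adcy9 could not be formed. The scripts were tested on simulated data. Python 3.11.15 made the tables and figures.

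Named are the genes of the rule, pathway genes past the threshold, the highest tested gene of each pathway list, and a fixed set (Aqp2, Aqp3, Prkar2b, Oxtr, Ptger3, Ptger4 and Creb1). Avpr1b, the genes that DESeq2 alone called, and those of the closing observations were named after their values were seen. The genes and lists were chosen with earlier results of these data known. Of 160 pathway genes, 30 had no row of their name and were not analysed here. Promoter windows are from RefSeq (GRCr8). Their coordinates are not those of rn4.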

Additional observations from a re-analysis of the deposited data

How the results depend on the processing

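None of the 8 members passed in any of the 18 alternatives, where 6 to 8 of them were tested and 0 to 4 had an unadjusted p under 0.05. The lowest adjusted p was 0.142, for Prkaca with the replicate number as a block. A minimum mean of 20 left Adcy3 and Rapgef4 untested. The sign of 7 members held in every alternative, and that of Adcy4 (0.07) turned without STZ replicate 2 or 3 (leave-one-out range −0.15 to 0.37). Among other named features, the leave-one-out range included a turn of sign for the merged feature with Avpr2 (−0.25 to 0.24), Gng10 (−0.18 to 0.24) and Calcrl (−0.55 to 0.41). All 5 ratios moved by less than 1 SD in all 9 alternatives run for each.
Of all features, 98 were called with no filter, 522 with quantile normalization, 31 with no trend and 597 with DESeq2, against 283. Leaving out control replicate 3 gave 352, and leaving out any other library gave 88 to 182. Of the pathway genes, limma called 5 at a minimum mean of 20, 0 with no filter (22 at an unadjusted p under 0.05), 6 with quantile normalization and 0 with no trend (18 at an unadjusted p under 0.05). DESeq2 called 9 of them and edgeR 2, and leaving out each library gave 1 to 4. The cause of these shifts was not tested.
The numbers 1, 2 and 3 recur in both groups. Same-numbered libraries deviated from their group means with correlations of r = 0.395, −0.061 and 0.323 across 9315 features, which are not independent. Between different numbers, r ran from −0.472 to 0.22, below the values of replicates 1 and 3 but not of replicate 2. The olfactory 95th percentile was 2.05 in control and 1.86 in STZ replicate 1, 6.33 and 5.93 in replicate 2, and highest in replicate 3. The libraries thus shared some structure by number, and its source was not tested. The samples were not taken as paired in the main test. With the replicate block, 561 features and 8 pathway genes were called by limma and 544 and 7 by edgeR. The 8 were Akap11, Akap12, Npy1r and the 5 genes with a main adjusted p from 0.059 to 0.0848, which were Gnai1 (0.0451 with the block), Pkib (0.011), Akap2 (0.0379), Rapgef5 (0.0462) and Rgs4 (0.0316).
Genes of 9 to 54 reads per library, as Rapgef4, Adcy3, Avpr1a, Prkaca and Prkacb were, can be compared only coarsely at this depth.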

Other observations

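In 5 of the 8 members the STZ library nearest to the control mean was replicate 3 (Avpr1a, Adcy4, Prkaca, Prkacb and Rapgef3), and in the others it was replicate 1 (Adcy3, Adcy6 and Rapgef4). The reads of both catalytic subunits together differed less than either alone. Prkaca and Prkacb summed to 66.6, 48.1 and 65.7 normalized counts in control and to 66.9, 61.3 and 66.3 in STZ rats, with means of 60.1 ± 10.5 and 64.8 ± 3.04 (SD, n = 3 each). This sum was formed after the values were seen and was not tested.

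By limma, 5 more pathway genes had adjusted p from 0.059 to 0.0848. The groups did not overlap in these 5, as in 20.3% of all features. Since the 5 were picked by their p-values, the lack of overlap in the same values is no separate result. Gnai1, a Gi subunit that inhibits cyclases, had 60.5, 83.1 and 124 normalized counts in control and 214, 180 and 164 after STZ, a log2 fold change of 1.11 (adjusted p = 0.059 by limma, 0.0695 by edgeR and 0.011 by DESeq2). Pkib, a PKA inhibitor, was near the floor in control libraries, at 10.3, 3.05 and 2.23 normalized counts, and at 43.6, 21.8 and 16.1 after STZ (log2 fold change 2.29 ± 0.58 SE; limma, adjusted p = 0.0732). Rgs4, an RGS protein of the Gi and Gq classes, had 74.6 ± 14.9 and 159 ± 58.2 (log2 fold change 1.04, adjusted p = 0.0848). Lower values in STZ rats were seen for Rapgef5, a Rap exchange factor that cAMP does not regulate, with 176 ± 18.8 and 101 ± 9.96 (log2 fold change −0.80, adjusted p = 0.0634), and for Akap2, an anchoring protein, with 185 ± 42.7 and 91.3 ± 20.8 (log2 fold change −1.01, adjusted p = 0.0651). These genes were picked after their values were seen.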
